A study of Mus musculus with 8 samples.

Results

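The comparison of terminal end buds (TEBs) with stroma rested on 6 of the 8 arrays of the series, 3 of TEBs and 3 of stroma, and covered all 611 mouse miRNAs that the array measures. TEBs, mature ducts and distal stroma were dissected under a fluorescence microscope from mammary glands 2 to 5 of 5-week-old female mice. Every mouse carried a beta-actin-GFP reporter transgene on the FVB/n background, and no group was treated. The beta-actin promoter is active in most cell types, and the cutting separated pieces of tissue, not sorted cells. The sources used here do not say whether the replicates of a tissue came from separate mice or from pools, and the p-values below therefore measure only the spread between these samples. The 2 duct arrays entered the fit for its estimate of the spread, and their values are given beside some results.

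miRNAs are short RNAs that are cut from hairpin precursors and lower the output of mRNAs that pair with their seed, which is bases 2 to 8 of the mature miRNA. miRNAs that share a seed are expected to share many targets, and several are made together from a single long transcript. TEBs are the bulbous growing tips that carry the ductal epithelium through the fat pad during puberty, and they hold dividing cap and body cells. The stroma around them is made of adipocytes, fibroblasts, vessels, blood cells and nerves.

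The mature sequences that carry the comparison are shown first, from RefSeq (GRCm38.p6), 5′ to 3′, with the seed in capitals. Of the 167 miRNAs tested, 142 were matched to a RefSeq sequence by name. The first set holds the miR-200 family, which falls into 2 seed groups, and the other epithelial miRNAs that were detected on no stroma array.
miR-200b: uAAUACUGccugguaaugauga
miR-200c: uAAUACUGccggguaaugaugga
miR-429: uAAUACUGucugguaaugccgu
miR-200a: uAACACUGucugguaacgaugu
miR-141: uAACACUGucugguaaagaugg
miR-183: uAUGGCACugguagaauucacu
miR-96: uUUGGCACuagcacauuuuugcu
miR-205: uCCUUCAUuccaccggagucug

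The hairpins of miR-200b (chr4:156055681-156055750), miR-200a (chr4:156054896-156054985) and miR-429 (chr4:156053905-156053987) lie close together on the minus strand, inside the annotated lncRNA gene Gm13648. Those of miR-200c (chr6:124718322-124718390) and miR-141 (chr6:124717914-124717985) form a second pair on the minus strand of chromosome 6, with no gene span of the annotation over them. miR-183 (chr6:30169668-30169737) and miR-96 (chr6:30169446-30169551) are neighbours on the same chromosome, again on the minus strand, and miR-205 lies at chr1:193507463-193507530 on the minus strand. None of these last 3 has another gene span over it.

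The second set holds the miR-17-92 cluster and the related miR-20b, which were higher in TEBs. miR-19a and miR-19b share a seed, as do miR-20a and miR-20b.
miR-18a: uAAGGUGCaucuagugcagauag
miR-19a: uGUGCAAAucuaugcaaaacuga
miR-19b: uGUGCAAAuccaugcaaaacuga
miR-20a: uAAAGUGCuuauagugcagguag
miR-20b: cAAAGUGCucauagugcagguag
miR-92a: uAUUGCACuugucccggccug

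On the plus strand of chromosome 14 the hairpins follow in the order miR-18a (chr14:115043851-115043946), miR-19a (chr14:115044000-115044081), miR-20a (chr14:115044157-115044263), miR-19b (chr14:115044305-115044391) and miR-92a (chr14:115044427-115044506). miR-20b lies on the minus strand of the X chromosome (chrX:52742113-52742192), beside further copies of miR-19b and miR-92a with the same mature sequences, so that the array cannot tell which locus gave their signal.

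The third set was higher in stroma. It is shown because its members pair up by seed.
miR-196a: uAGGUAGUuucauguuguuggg
miR-196b: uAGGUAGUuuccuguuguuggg
miR-193: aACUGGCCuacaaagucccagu
miR-193b: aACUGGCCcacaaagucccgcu
miR-103: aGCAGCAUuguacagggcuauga
miR-107: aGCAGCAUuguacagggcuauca
miR-29a: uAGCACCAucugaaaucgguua
miR-29c: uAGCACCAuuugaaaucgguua
miR-30a: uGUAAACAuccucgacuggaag
miR-30e: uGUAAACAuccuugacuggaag

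The miR-196 hairpins lie at chr11:96265164-96265265 and chr15:102973350-102973434 (miR-196a, both on the plus strand) and at chr6:52230081-52230165 (miR-196b, minus strand), in the regions of the Hox gene clusters. The hairpins of miR-103 lie within Pank3 (chr11:35782396-35782481) and Pank2 (chr2:131288052-131288137), and that of miR-107 lies within Pank1 (chr19:34820687-34820773), genes of coenzyme A synthesis. Probes for mature miRNAs this alike in sequence may bind each other's target, so the levels within a pair are not fully separate measurements.

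The array gave each miRNA a total signal intensity, the error of it and a mark for whether it counted as detected. Between 23.2% and 27.7% of the mouse miRNAs were detected on each of the 8 arrays, and the median error of a detected miRNA was 10.5% to 11.5% of its signal. No counts stand behind these intensities, and the number of arrays limits the precision. Of the 611 miRNAs, 193 were detected on at least 1 TEB or stroma array, 114 on all 6 and 418 on none. Signals were multiplied by a factor for each array (0.75 to 1.36) that gave every array the same 75th percentile, taken over 108 miRNAs found on each of the 8, and are given below as scaled units. Values under 1 were set to 1 only for log2 fold changes, which are TEBs over stroma throughout.

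limma was run on 167 miRNAs, those that all arrays of 1 tissue or more had detected, at an adjusted p under 0.05 (Benjamini-Hochberg). It called 108 of them (64.7%). TEBs had the higher signal for 34 (20.4%) and stroma for 74 (44.3%). The TEB arrays did not overlap the stroma arrays for 121 of the 167 (72.5%), with TEBs above in 40 (24.0%) and stroma above in 81 (48.5%). Among the 108 called, 107 did not overlap, the exception being miR-199a-3p. An exact permutation test of 3 arrays against 3 cannot go below 0.1, so single miRNAs are given by the limma fit. The called differences were more numerous on the stroma side. The median fitted log2 fold change was 2.31 over the miRNAs higher in TEBs and -1.03 over those higher in stroma. The first value depends on the floor of 1, since 16 of the 34 miRNAs were detected on no stroma array, and it was 1.23 with these at the lower bounds defined below. At least a 4-fold difference was reached by 12 of the 34 at these bounds (18 as fitted) and by 14 of the 74. With the arrays split by their row on the slide, each row holding TEB and stroma arrays, all 108 differences kept their direction within both rows. For the 107 that do not overlap, this follows from the lack of overlap, so the split cannot test for a row effect. With the row as a block, the calls of let-7a, miR-15a, miR-15b and miR-29b were lost (adjusted p = 0.072, 0.08, 0.072 and 0.062 from limma).

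**Figure D1:**
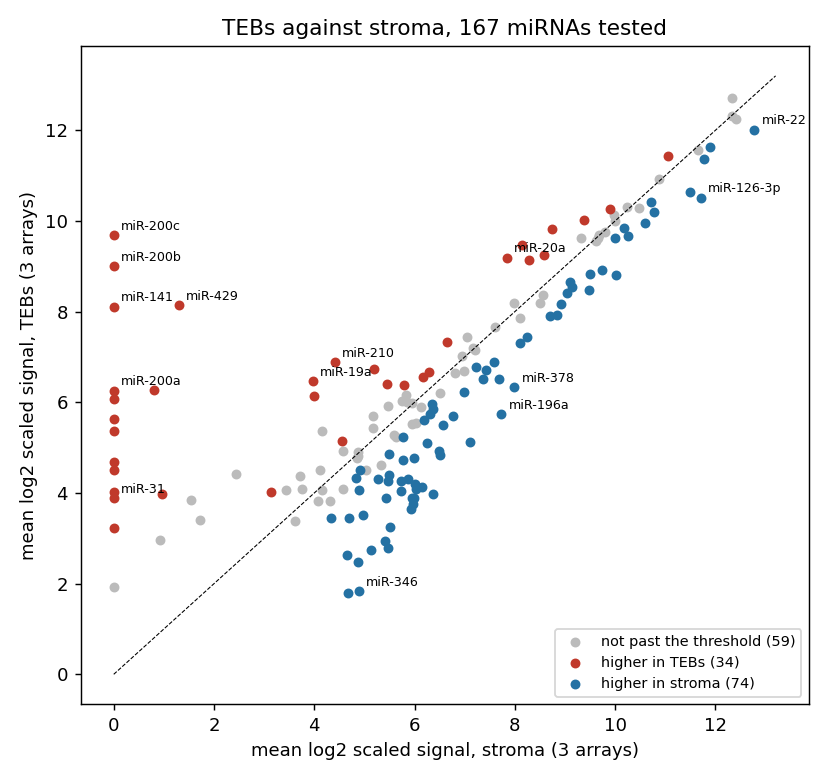
Mean log2 scaled signal of the 167 tested miRNAs in stroma (x axis) and TEBs (y axis), 3 arrays each, with equal levels on the dashed line. Points on the left edge were at or under 1 unit in stroma. The 34 miRNAs higher in TEBs include those on the left edge, whose distance from the line is set by the floor, and the 74 higher in stroma lie below the line.

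The balance between the directions depended on the scaling. The median log2 fold change of all 167 miRNAs was -0.28 as scaled here, with 31.5% of the calls higher in TEBs. It was 0.12 with the 75th percentile taken over all mouse miRNAs (38 higher in TEBs and 28 in stroma, 57.6%) and 0.21 with the median of the 108 shared miRNAs (59 and 36, 62.1%). Quantile normalization gave -0.07 (41 and 60, 40.6%), no scaling -0.03 (41 and 41, 50%) and the authors' value table -0.02 (43 and 60, 41.7%). Scaling to the miRNAs detected on all 6 TEB and stroma arrays left the balance near the main one (34 and 73, 31.8%). Of the 34 miRNAs higher in TEBs, 33 passed under all 7 scalings, the exception being miR-301a, against 27 of the 74 higher in stroma. These shares are not a like comparison, since 16 of the 34 were detected on no stroma array. Negative signals sit at the floor whatever the factor of the array, which limits how far a scaling can move such a fold change. All the other scalings also moved the median log2 fold change towards TEBs, by 0.0043 to 0.48. Passing under all 7 was therefore a strict demand on a call higher in stroma and a weak one on a call higher in TEBs. For 9 of the 74, namely let-7a, let-7d, let-7f, miR-15a, miR-130a, miR-143, miR-192, miR-151-5p and miR-100, the direction turned under at least 1 scaling. The stromal differences below are accordingly given with the number that passed under every scaling.

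By the detection flags, 17 of the 611 miRNAs (2.78%) were found on every TEB array and on no stroma array, and 8 (1.31%) on every stroma array and on no TEB array. The first group holds the epithelial miRNAs shown above. Of its 17 members, 9 were also detected on both duct arrays and 5 on neither. For these miRNAs a fold change has no measured denominator. It is therefore given as a lower bound, the mean log2 signal in the tissue where the miRNA was detected against, on each array of the other tissue, the higher of its own signal and the lowest signal of any detected miRNA. That lowest signal was 3.18 to 11.9 units on the stroma arrays. On the TEB arrays it was only 0.246 to 5.02 units, set on replicates 1 and 2 by miR-362-5p. An adjusted p value beside a bound belongs to the fit with the floor of 1, not to the bound. Signals under 1 all count as 1 in that fit and so have no spread.

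All 5 tested members of the miR-200 family, which represses the Zeb transcription factors and helps to keep epithelial cells in sheets, were higher in TEBs, and under all 7 scalings. Over all miRNAs tested 20.4% were higher in TEBs. None of the 5 was detected on any stroma array. They were tested because every TEB and duct array detected them, so the count of 5 and the scalings add little to the detection flags. Their star strands, the other arms of the hairpins, were not detected on any TEB or stroma array.

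The scaled signal of miR-200c was 838, 806 and 819.7 units in TEBs and -19.5, -19.7 and -9.32 units in stroma, at least 110-fold higher in TEBs (adjusted p = 5.99e-10 from limma with the floor). That of miR-200b was 510, 502 and 529 units in TEBs and -8.95, -6.14 and -2.57 units in stroma, a bound of at least 68.8-fold (adjusted p = 8.14e-10). The TEB arrays lay within a narrow range for both miRNAs and every stroma array lay below 0, which is background after subtraction. miR-429, with the same seed, gave 224, 338 and 294 units in TEBs and -0.028, 2.71 and 5.52 units in stroma, or at least 31.4-fold higher in TEBs. Members of the other seed group had the same pattern. miR-141 gave 246, 298 and 287 units in TEBs and none above 0 in stroma, at least 37.1-fold. miR-200a gave 86.6, 70.5 and 73.0 units in TEBs, at least 10.2-fold above stroma. In mature ducts miR-200a stood at 245 and 209.8 units, above all TEB arrays, whereas miR-200c stood at 796 and 716 units, below them.

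miR-183 and miR-96, which are made from a shared transcript in sensory and other epithelial cells, were both higher in TEBs. miR-183 gave 43.9, 56.2 and 49.8 units in TEBs and miR-96 gave 57.7, 77.3 and 67.7 units, with lower bounds of 6.66-fold and 9.00-fold over stroma. The third member of their transcript, miR-182, was not detected on any TEB or stroma array. miR-205, a miRNA of basal and progenitor epithelial cells, gave 44.4, 42.2 and 36.7 units in TEBs and from -8.82 to -6.85 units in stroma, at least 5.50-fold. miR-203, a miRNA of stratified epithelium, was not detected in either tissue. Of the 10 markers of epithelial cells, 8 were thus detected on every TEB array and 0 of 10 on any stroma array. Their summed signal, with negative values as 0, was 2059 to 2193 units in TEBs, 2161 to 2391 units in ducts and 2.71 to 16.6 units in stroma.

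**Figure D2:**
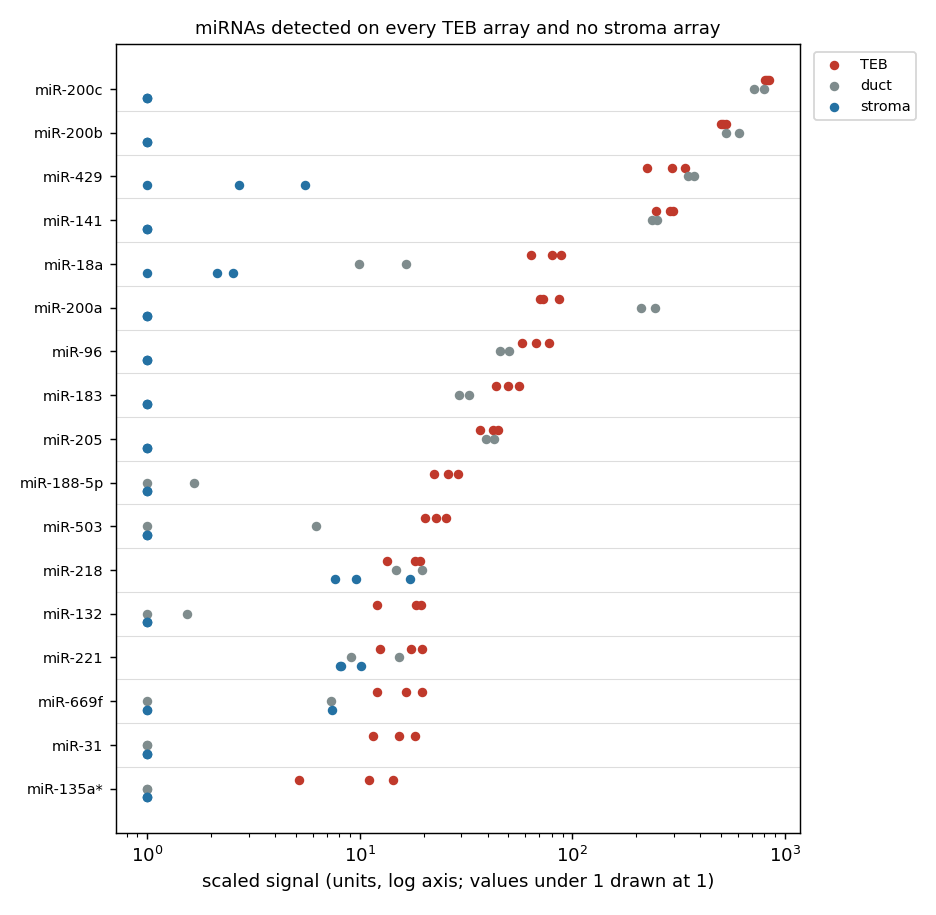
Scaled signal (units, log axis) of the 17 miRNAs detected on every TEB array and no stroma array, with a point for each TEB (3), duct (2) and stroma (3) array and values under 1 drawn at 1. The miR-200 family, miR-183, miR-96 and miR-205 were detected in TEBs and ducts alike, while miR-18a was lower in ducts than in TEBs and miR-31, miR-132 and miR-188-5p were not detected there.

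The miR-17-92 cluster is a Myc target that favours cell division. Of its 6 tested members 5 were higher in TEBs and 1 was higher in stroma. All 6 calls held under the 7 scalings, a weak demand on the 5, since no scaling moved the median towards stroma. The median log2 fold change was 1.22, against -0.28 over all miRNAs tested, of which 20.4% were higher in TEBs. miR-18a was among those absent from stroma, with 64.0, 88.7 and 80.4 units in TEBs against 2.54, -2.55 and 2.12 units in stroma, at least 10.3-fold. Its duct arrays gave 9.89 and 16.4 units. The other members were measured in both tissues. miR-19a, detected on 2 of the 3 stroma arrays, gave 20.8, 11.1 and 16.4 units in stroma and 83.3, 88.4 and 92.8 units in TEBs (a log2 fold change of 2.50 with a standard error of 0.24, and adjusted p = 0.00025), with no overlap between the tissues. Its seed partner miR-19b had much higher signals and a smaller difference, 831, 945 and 955 units in TEBs against 439, 468 and 387 units in stroma (log2 fold change 1.08 ± 0.11 SE, adjusted p = 0.0003). miR-20a gave 471, 667 and 634 units in TEBs against 253, 250.2 and 188 units in stroma (log2 fold change 1.36), and miR-92a 614, 615 and 585 units against 370.1, 422 and 363 units (log2 fold change 0.65). miR-17 was not detected on any TEB or stroma array. The member higher in stroma was the star strand miR-18a*, with 1.83, 8.54 and 10.9 units in TEBs and 20.5, 40.2 and 30.5 units in stroma. The call of miR-18a* was lost without stroma replicate 2 (adjusted p = 0.069) and without stroma replicate 3 (adjusted p = 0.055). Another star strand, miR-17*, was not tested. It was flagged as detected on 2 TEB arrays and on no stroma or duct array. Its signals were 11.5, 11.5 and 9.12 units in TEBs and -10.3, -14.6 and -5.11 units in stroma.

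The paralogous clusters differed in part. Of 4 tested members of the miR-106b-25 and miR-106a-363 clusters, 2 were higher in TEBs and 2 did not pass. Over all miRNAs tested 20.4% were higher in TEBs. miR-20b gave 86.4, 119.9 and 118 units in TEBs and 33.4, 40.5 and 35.7 units in stroma (log2 fold change 1.55, adjusted p = 0.00032), and miR-93 77.1, 89.0 and 84.5 units against 60.1, 53.9 and 51.8 units (log2 fold change 0.60, adjusted p = 0.0049). miR-25 and miR-106b had log2 fold changes of 0.07 and 0.22 with adjusted p = 0.64 and adjusted p = 0.34 from limma. Of the 4 tested miRNAs with the seed AAAGUGC, which miR-20a and miR-20b carry, 3 were higher in TEBs, against the same 20.4%.

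Beyond these families, 8 miRNAs with weak signals were detected on the TEB arrays and on no stroma array. miR-31, which represses regulators of cell motility, gave 15.3, 18.1 and 11.5 units in TEBs and -19.7, -26.7 and -16.8 units in stroma, at least 1.97-fold (adjusted p = 3.13e-06 from limma with the floor). miR-132, a target of the transcription factor CREB, gave 12.0, 19.5 and 18.5 units in TEBs and none above 0.114 units in stroma, at least 2.18-fold. For both, the duct arrays lay at or below 1.54 units. miR-188-5p, made from an intron of the chloride transporter gene Clcn5, gave 28.9, 26.1 and 22.4 units in TEBs and only negative signals in stroma, at least 3.44-fold. Of the other miRNAs of its cluster, miR-362-3p and miR-500 were higher in stroma and miR-532-5p did not pass. miR-362-5p, not tested, was flagged as detected on 2 TEB arrays and on no stroma or duct array, with 2.06, 0.246 and -6.54 units in TEBs and -12.6, -19.5 and -9.54 units in stroma. miR-503, a miR-16 relative that slows the cell cycle, gave 25.4, 20.2 and 22.8 units in TEBs, at least 3.05-fold. Its cluster partner miR-322 was measured in both tissues, at 963, 1080 and 1061 units in TEBs and 671, 654 and 675 units in stroma (log2 fold change 0.63, adjusted p = 0.00096).

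The remaining 4 stood nearest to background. miR-221 (at least 1.59-fold), miR-669f (at least 1.59-fold) and miR-135a* (at least 1.26-fold) were higher in TEBs. miR-669f, a miRNA of the rodent-specific cluster in an intron of Sfmbt2, was the only detected member of 39 on the array, and its call was lost in 5 of the 8 fits that leave out 1 array each. Without stroma replicate 2 its adjusted p was 0.12. The call of miR-221 was lost in 4 of them, with an adjusted p of 0.063 without TEB replicate 2. With another background correction (normexp with an offset of 50) the fold changes of miR-132, miR-221 and miR-669f turned to -0.041, -0.24 and -0.13 on the log2 scale. miR-218 did not pass (log2 fold change 0.63, adjusted p = 0.13) except without stroma replicate 3 (0.97, adjusted p = 0.016), and its stroma signals of 7.61 to 17.3 units overlapped its TEB signals of 13.4 to 19.1 units. The flag and the size of a signal did not always go together here. miR-135a* was flagged as detected on TEB replicate 3 at 1.37 times its error, while miR-290-3p was flagged as not detected on TEB replicate 1 at 4.09 times its error.

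Among the miRNAs measured in both tissues, miR-210, which hypoxia induces, stood beside miR-19a at the top. Its signals were 97.8, 119 and 141 units in TEBs against 22.3, 16.9 and 25.6 units in stroma (log2 fold change 2.47 ± 0.23 SE, adjusted p = 0.00025), and 34.3 and 50.5 units in ducts. miR-689 (log2 fold change 2.14), miR-1224 (1.33) and miR-455 (0.96) followed among those outside the families above. miR-1224 gave 740.05, 659 and 729.5 units in TEBs and 211, 277 and 382 units in stroma.

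Of the 5 tested miRNAs listed for fibroblasts and smooth muscle, 3 were higher in TEBs, 1 was higher in stroma and 1 did not pass. Over all miRNAs tested 20.4% were higher in TEBs and 44.3% in stroma. The 3 higher in TEBs have hairpins in the Dnm3os transcript. Where a mature miRNA has several loci, the array cannot tell which of them gave its signal. miR-214 gave 544, 609 and 536 units in TEBs against 297, 297 and 343 units in stroma (log2 fold change 0.85, adjusted p = 0.00058). miR-199a-5p gave 135, 172 and 179 units against 93.3, 100.0 and 107 units (log2 fold change 0.69, adjusted p = 0.0048). Both passed under all 7 scalings, none of which moved the median towards stroma. The mature ducts had 448 and 452 units of miR-214 and 158 and 172 units of miR-199a-5p, above all 3 stroma arrays in each case. miR-199a-3p had a log2 fold change of 0.37 (adjusted p = 0.039), its arrays overlapped, and its call was lost in 6 of the 8 fits that leave out 1 array each (adjusted p up to 0.12, without stroma replicate 1). miR-143 of the same list, a miRNA of smooth muscle and fibroblasts, was higher in stroma (log2 fold change -0.40, adjusted p = 0.035), but turned to 0.08 with the median scaling and missed the threshold without any of TEB replicates 1 to 3, stroma replicate 1 or stroma replicate 2 (adjusted p of 0.063 to 0.12). miR-199b* did not pass (log2 fold change -0.19, adjusted p = 0.45), with 906, 1486 and 1422 units in TEBs and 1523, 1534 and 1219.5 units in stroma. miR-145, usually made with miR-143, was not detected on any TEB or stroma array. In bulk tissue, fewer cells of a type and less of an RNA per cell cannot be told apart.

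**Figure D3:**
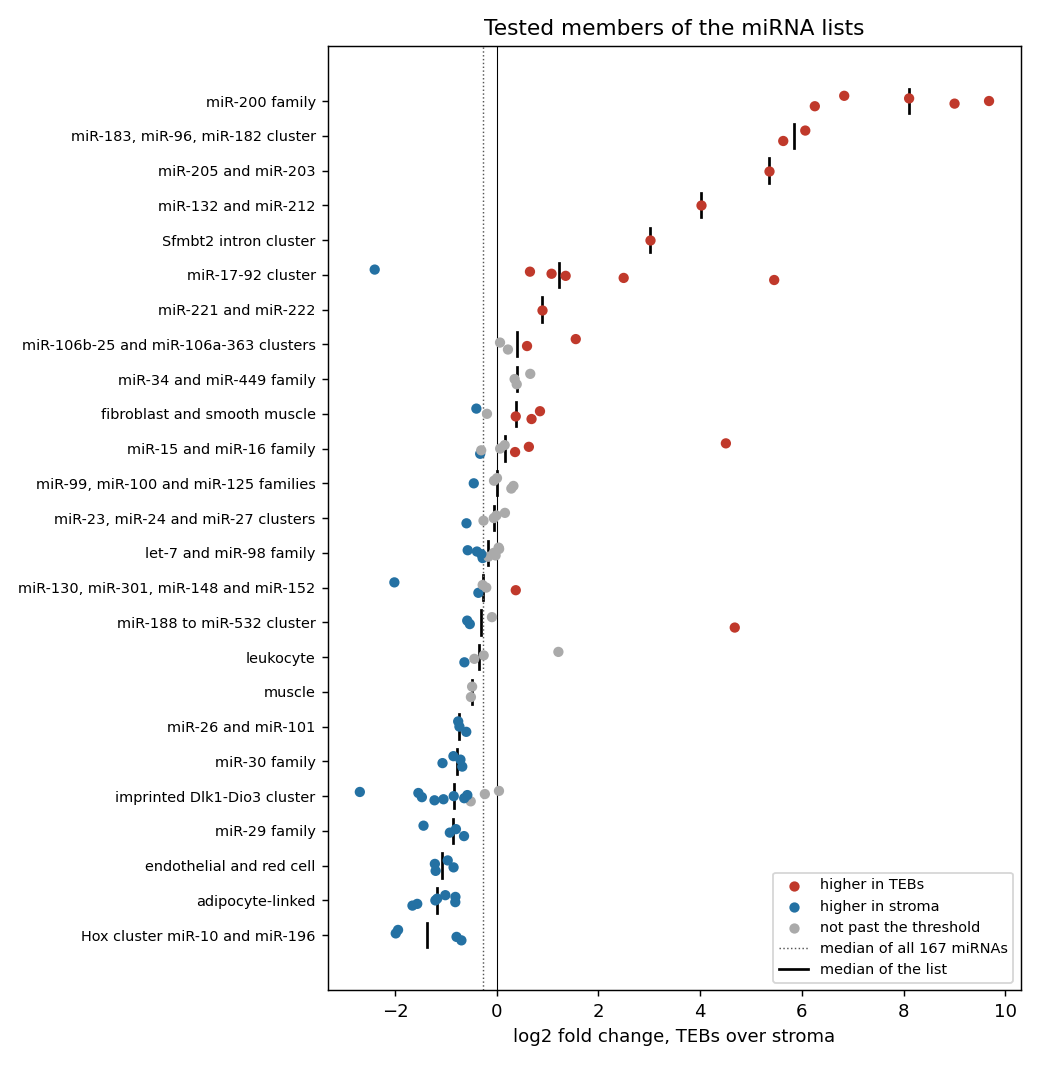
Log2 fold change (TEBs over stroma) of the tested members of each miRNA list, a point for each miRNA, with the median of the list as a bar and the median of all 167 miRNAs as a dotted line. Members at the floor in a tissue, as the miR-200 family in stroma, have a fold change set by the floor. Lists of epithelium and proliferation lie to the right, and those of the Hox clusters, adipocytes, vessels and blood to the left.

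On the stromal side, the Hox cluster miRNAs led the lists. All 4 tested members were higher in stroma, against 44.3% over all miRNAs tested. Their median log2 fold change was -1.36, against -0.28 over all miRNAs tested. It stayed negative under all 7 scalings, and miR-196a and miR-196b passed under each of them. These miRNAs repress Hox genes and carry the position of a tissue along the body axis. miR-196a gave 57.2, 52.9 and 50.6 units in TEBs and 188, 250.3 and 202 units in stroma (log2 fold change -1.98 ± 0.13 SE, adjusted p = 3.95e-05). Its ducts, at 48.3 and 53.1 units, overlapped the TEB arrays. miR-196b, with the same seed, gave 19.4, 15.2 and 16.4 units in TEBs and 49.7, 78.4 and 70.1 units in stroma (log2 fold change -1.94, adjusted p = 0.00032). miR-10a and miR-10b share another seed and had smaller differences, with log2 fold changes of -0.69 and -0.79.

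The adipocyte-linked list was higher in stroma in 7 of its 7 tested members, against 44.3% over all miRNAs tested. Its median log2 fold change of -1.17 was negative under all scalings. Only miR-378 and miR-378* passed under all 7. Both come from a hairpin in the gene of PGC-1beta, a coactivator of mitochondrial and fat metabolism. miR-378 gave 113, 59.0 and 78.4 units in TEBs and 254, 262 and 247 units in stroma (log2 fold change -1.66 ± 0.33 SE, adjusted p = 0.0054), and 35.7 and 74.3 units in ducts. Its star strand gave 40.5, 22.5 and 30.5 units in TEBs and 91.0, 99.9 and 78.6 units in stroma (log2 fold change -1.56). The TEB arrays varied more than the stroma arrays for miR-378, but none reached the lowest stroma array. miR-193b and miR-365, a pair that promotes brown fat, had log2 fold changes of -1.21 and -1.17. miR-193b rose from 541, 380 and 445 units in TEBs to 1094, 1178 and 871 units in stroma, and miR-365 from 92.5, 92.2 and 89.0 units to 208, 214 and 194 units. miR-103 and miR-107, which lower insulin sensitivity, followed with log2 fold changes of -0.81 and -1.01. miR-107 was tight within each tissue, 365, 360.4 and 345 units in TEBs and 710.4, 749 and 695 units in stroma (adjusted p = 8.4e-05). The summed signal of the 4 adipocyte markers (miR-378, miR-378*, miR-193b and miR-365) was 553 to 788 units in TEBs and 1391 to 1753 units in stroma.

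**Figure D4:**
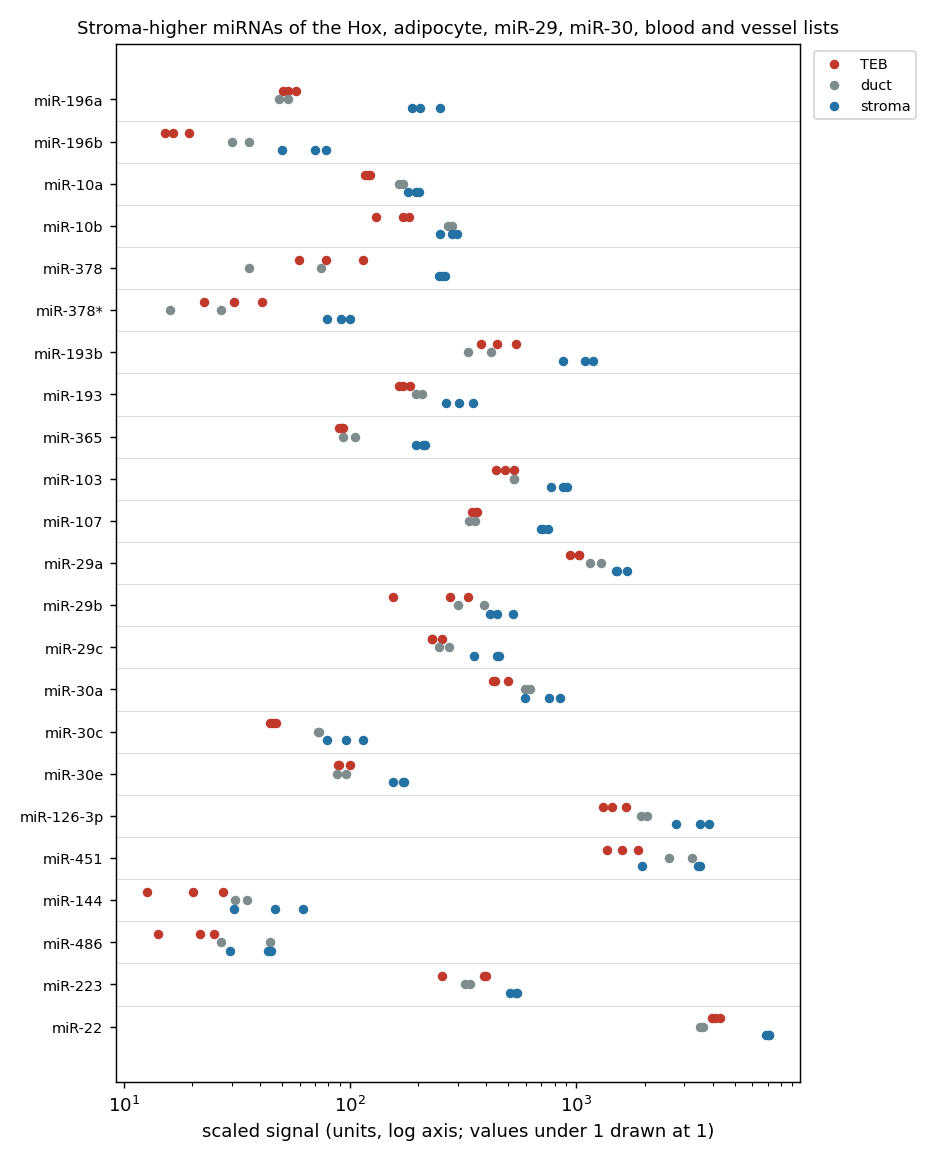
Scaled signal (units, log axis) of 23 miRNAs higher in stroma, with a point for each TEB (3), duct (2) and stroma (3) array. TEB and stroma arrays are apart in each row. For miR-196a, miR-365 and miR-107 the ducts lie with the TEBs, and for miR-10b and miR-451 they lie with or near the stroma.

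The miR-29 family, which lowers collagens and other matrix proteins, was higher in stroma in 4 of 4 tested members, against 44.3% over all miRNAs tested. Its median log2 fold change was -0.86, negative under all scalings, but miR-29c* alone passed under all 7. miR-29c* was tested only because every stroma array detected it. miR-29a gave 1028, 1022 and 938 units in TEBs and 1489.7, 1666 and 1510 units in stroma (log2 fold change -0.64, adjusted p = 0.0015), and miR-29c 229, 255 and 230.4 units against 446, 455 and 351 units (log2 fold change -0.80, adjusted p = 0.0024). miR-29b had a log2 fold change of -0.92, which lost its call without stroma replicate 1 (adjusted p = 0.071) or stroma replicate 2 (adjusted p = 0.079). The miR-30 family was higher in stroma in 4 of 4 tested members, from -1.07 for miR-30c to -0.68 for miR-30a, and none passed under all scalings although the direction held. miR-26a, miR-26b and miR-101a, which repress the histone methyltransferase Ezh2, likewise had log2 fold changes of -0.60, -0.73 and -0.76, none of them called under all scalings. Single members of other widely expressed families were also higher in stroma, among them miR-23a (-0.59) and let-7g (-0.57).

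miRNAs of vessels and blood were higher in stroma, in 4 of the 4 tested, against 44.3% over all miRNAs tested. miR-126-3p, which comes from the endothelial gene Egfl7, gave 1315, 1650 and 1430 units in TEBs and 3526, 3863 and 2765 units in stroma (log2 fold change -1.20 ± 0.15 SE, adjusted p = 0.00096). The red cell miRNAs miR-451, miR-144 and miR-486 had log2 fold changes of -0.85, -1.22 and -0.96. For miR-451 the TEB arrays gave 1595, 1874 and 1358 units and the stroma arrays 3516, 3439.6 and 1958 units, so that stroma replicate 3 lay close to the highest TEB array. Each of these 3 calls was lost in 4 of the 8 fits that leave out 1 array each, with adjusted p values of 0.051 to 0.091, and none of the 4 vessel and blood miRNAs passed under all scalings. Among the leukocyte miRNAs only miR-223, of neutrophils and monocytes, passed (log2 fold change -0.64, adjusted p = 0.020), and it missed the threshold without stroma replicate 2 (adjusted p = 0.054). miR-142-3p, miR-146a and miR-146b did not pass, with log2 fold changes of -0.44, -0.26 and 1.21. Stroma replicate 3 set the last value apart, since it had 46.9 units of miR-146b against 12.0 and 10.0 units on the other stroma arrays, and without it the log2 fold change was 1.91 (adjusted p = 0.00046). Muscle miRNAs were weak in both tissues. miR-133a and miR-133b did not pass, each with 2 TEB arrays and 1 stroma array flagged as detected.

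The other cell types thus left signals in both tissues. The summed markers of endothelial cells ran from 1315 to 1650 units in TEBs and from 2765 to 3863 units in stroma, with 1 of the 2 detected. Those of red cells ran from 1385 to 1923 units and 2018 to 3622 units, with 2 of 3 detected on all TEB arrays and 3 of 3 on all stroma arrays. Those of leukocytes ran from 296 to 450 units and 563 to 679 units, with miR-142-5p and miR-150 not detected in either tissue. Muscle markers summed to 17.1 to 89.5 units in TEBs and 31.2 to 60.2 units in stroma, where their ranges overlapped. Those of fibroblasts and smooth muscle were the exception in direction, at 3160 to 3779 units in TEBs and 2467 to 2964 units in stroma. Most of this sum was miR-199a-3p, whose arrays overlapped (2421, 2908 and 3003 units in TEBs, 1999, 1984 and 2445 units in stroma). miR-199b*, which is on the list of these cells and did not pass, is not among the markers summed. The part of these cell types in the differences of single miRNAs was not tested.

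Of the 11 tested miRNAs listed for the imprinted Dlk1-Dio3 region, a domain on chromosome 12 whose miRNAs are expressed from the maternal chromosome, 8 were higher in stroma, 0 higher in TEBs and 3 did not pass. Over all miRNAs tested 44.3% were higher in stroma. The median log2 fold change of the list was -0.84, and it stayed negative under all scalings. miR-154, miR-329, miR-434-3p and miR-485* passed under all 7. miR-154 gave 21.3, 26.3 and 36.3 units in TEBs and 56.6, 71.6 and 63.8 units in stroma (log2 fold change -1.22, adjusted p = 0.0030), and 58.7 and 56.5 units in ducts. miR-434-3p gave 10.2, 15.7 and 20.3 units in TEBs against 37.8, 49.9 and 42.5 units (log2 fold change -1.54). miR-337-5p (-0.84) lost its call without any of TEB replicates 1 to 3 or stroma replicate 1 (adjusted p of 0.052 to 0.063). miR-345-5p (-0.58) was on the list, but its gene lies outside the interval between Dlk1 and Dio3. Of 58 listed miRNAs on the array, 12 were detected on any TEB or stroma array.

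The 8 miRNAs found on every stroma array and no TEB array were miR-18a*, miR-290-3p, miR-294, miR-29c*, miR-346, miR-485*, miR-540-5p and miR-698. Without stroma replicate 1 the count was 13. They were weak in stroma, and their folds by the calculation above, which are ratios of geometric means, were 2.37 to 6.54. These are not firm bounds, since the lowest detected signal of the TEB arrays was near background. For miR-290-3p, miR-29c*, miR-294 and miR-698 the signal of the miRNA itself lay above it on every TEB array, so that the fold is the fitted one. miR-346, from an intron of the glutamate receptor gene Grid1, headed them with 0.957, 5.21 and 8.72 units in TEBs and 20.6, 46.6 and 27.3 units in stroma, a ratio of 6.54 by the same calculation (adjusted p = 0.018).
miR-346: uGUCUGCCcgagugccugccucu

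All 8 had signals above 0 on every TEB array, none of them flagged as detected, and 6 of the 8 were detected on both duct arrays. Of the 8, the calls of miR-18a*, miR-290-3p, miR-294, miR-346, miR-485*, miR-540-5p and miR-698 were lost without stroma replicate 2, with adjusted p values of 0.056 to 0.069. miR-130b* was detected on 2 stroma arrays and no TEB array, with a fitted fold of 4.03 higher in stroma.

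Among miRNAs detected in both tissues, the largest stromal differences were those of miR-615-3p (-2.48), miR-1894-5p (-2.39), miR-207 (-2.30), miR-1196 (-2.20), let-7d* (-2.09), miR-197 (-2.06), miR-211 (-2.02), miR-196a, miR-328 (-1.98) and miR-196b. miR-615-3p gave 3.06, 9.45 and 15.4 units in TEBs and 33.7, 64.4 and 35.5 units in stroma, and 52.0 and 30.8 units in ducts. miR-328 gave 18.8, 39.4 and 56.7 units in TEBs and 113, 196 and 116 units in stroma. The calls of miR-1894-5p, miR-1196 and miR-197 were lost without stroma replicate 2 (adjusted p = 0.065, adjusted p = 0.056 and adjusted p = 0.05 from limma). For miR-615-3p and miR-328, TEB replicate 1 was the lowest of its tissue and stroma replicate 2 the highest.

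This array pattern was common among the weak miRNAs higher in stroma, and it is given here because it bears on their fold changes. The split at a mean of 100 units over the 8 arrays was chosen after the values were seen and is not tested. Of the 44 miRNAs below it, 30 had their lowest TEB signal on replicate 1 and 33 had their highest stroma signal on replicate 2. Their TEB replicate 3 was 1.69-fold above replicate 1 in the median. Of the 30 at or above 100 units, 10 and 20 had these extremes, and the median ratio was 0.952-fold. The weak group had a median GC content of 50% in the mature sequence (37 with a sequence) and the brighter group 40.9% (25 with a sequence). The same held over all tested miRNAs, with 50% under 100 units and 42.9% at or above. In the duct samples, the mean lay nearer to stroma than to TEBs for 35 of the 44 and nearer to TEBs for 21 of the 30. All 44 kept their direction without any single array, which the lack of overlap between the tissues made nearly certain in advance. The number called fell to 27 without stroma replicate 2 and was 39 to 44 without any other array. The median log2 fold change, -1.51 with all arrays, was -1.25 without TEB replicate 1 and -1.36 without stroma replicate 2. Under all 7 scalings 25 of the 44 were called, against 2 of the 30. The part of this array pattern in the differences was not tested.

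**Figure D5:**
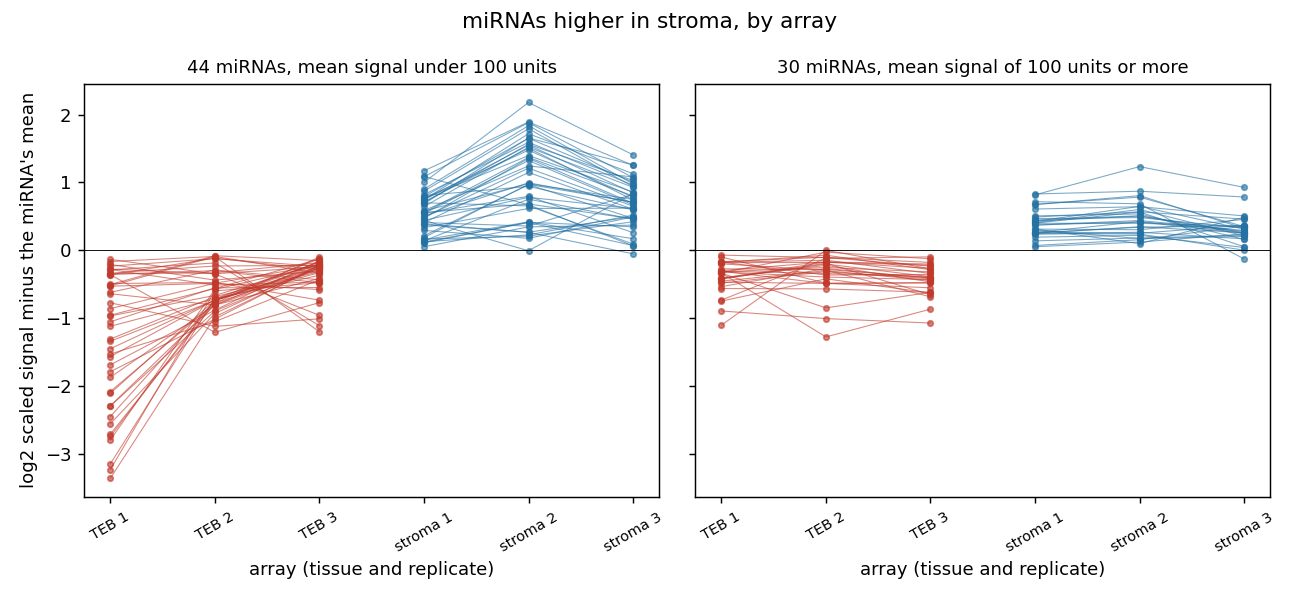
Log2 scaled signal of the 74 miRNAs higher in stroma, each minus its own mean over the 6 arrays (y axis), by array (x axis), split at a mean signal of 100 units; thin lines join the values of a miRNA within a tissue. In the weak group TEB replicate 1 spreads lowest and stroma replicate 2 highest, which is not seen to the same extent in the brighter group.

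The other families are given beside the shares over all tested miRNAs, 64.7% called, 20.4% higher in TEBs and 44.3% higher in stroma. The let-7 and miR-98 family, which marks differentiated cells and is held down by Lin28 in early ones, had 4 of 9 tested members higher in stroma, near the share over all miRNAs, and 5 that did not pass, and its median log2 fold change of -0.16 turned positive with 4 of the 6 other scalings (up to 0.32). let-7d lost its call without TEB replicate 1, stroma replicate 1 or stroma replicate 2 (adjusted p of 0.052 to 0.07), and let-7f without TEB replicate 1 (adjusted p = 0.06). let-7c gave 5100, 5141 and 4969 units in TEBs and 4891, 5038 and 5526 units in stroma, overlapping (log2 fold change -0.02, adjusted p = 0.84). Of 5 tested miRNAs of the miR-99, miR-100 and miR-125 families, only miR-100 was called (-0.45), with miR-99a passing without TEB replicate 1 (0.43, adjusted p = 0.016), and miR-125b-5p stood at 825, 787 and 871 units in TEBs against 794, 754 and 934 units in stroma. Of 5 of the miR-23, miR-24 and miR-27 clusters, only miR-23a was called, and miR-27b passed without TEB replicate 1 (0.32, adjusted p = 0.027). In the miR-15 and miR-16 family, 3 of 7 were higher in TEBs (miR-503, miR-322 and miR-15b), miR-15a was higher in stroma (log2 fold change -0.32, turning to 0.16 with the median scaling) and 3 did not pass. Of these, miR-503 was tested only because every TEB array detected it. The small differences of miR-15a and miR-15b were lost in 5 and 4 of the fits that leave out 1 array each (adjusted p of 0.071 to 0.14 and 0.060 to 0.11).

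The miR-34 family, downstream of p53, did not pass in 3 of 3 tested members. miR-34a gave 129, 199 and 199 units in TEBs and 130.1, 134 and 129 units in stroma (log2 fold change 0.39, adjusted p = 0.095). TEB replicate 1 was apart from the others, and without it the log2 fold change was 0.63 (adjusted p = 0.0028). The same array set miR-21 apart, at 5061 units against 7918 and 7628 units on the other TEB arrays, with stroma at 5077, 5491 and 4889 units. The log2 fold change of miR-21 was 0.39 (adjusted p = 0.12) with it and 0.62 (adjusted p = 0.0090) without it. In the group of miR-130, miR-301, miR-148 and miR-152, 1 of 5 was higher in TEBs (miR-301a, 0.38), 2 higher in stroma (miR-130a and miR-130b*) and 2 did not pass. The call of miR-301a was lost without TEB replicate 1, TEB replicate 2, stroma replicate 1 or stroma replicate 2 (adjusted p of 0.055 to 0.063), and that of miR-130a without TEB replicate 1 (adjusted p = 0.063). No member of the miR-181 family was detected on any TEB or stroma array. Of the miRNAs that the study singled out, miR-184 was not detected on any TEB or stroma array (8.51, 6.55 and -0.221 units in TEBs, -21.1, -30.3 and -18.3 units in stroma). Both duct arrays detected it, and no fold between TEBs and stroma is given.

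In both tissues the highest signals came from the same 5 miRNAs, miR-21, let-7c, let-7b, miR-22 and let-7a. They made up 35.2% of the summed signal in TEBs and 35.8% in stroma, with negative signals included in the sum. Signals of different probes are not levels on a shared scale, so their order says nothing about abundance. Of these, miR-22, linked to fat and heart metabolism, was higher in stroma, with 4302, 4082 and 3977 units in TEBs against 7072, 7073 and 6862 units in stroma (log2 fold change -0.77 ± 0.07 SE, adjusted p = 0.00029). The ducts stood lower than both, at 3525 and 3613 units. let-7a was called higher in stroma (log2 fold change -0.28, adjusted p = 0.034), but this turned to 0.12 with the 75th percentile over all miRNAs and was lost when any single array was left out (adjusted p of 0.051 to 0.12).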

How the data were processed

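Total RNA (100 ng a sample) was labelled with Cy3-pCp and hybridised to Agilent single-colour mouse miRNA arrays. The authors deposited, for each miRNA, the total signal intensity, its error and a detection flag from Agilent Feature Extraction 9.5.3, with background subtracted and no scaling between arrays. They also deposited a value table on a log2-like scale (r of 0.990 to 0.999 with the log2 intensity of detected miRNAs on each array). Its column medians were 0.14, 0.17 and, for 6 arrays, 1.48. All columns share a maximum of 16.5. Its base, centring and normalization are not stated, and it served only as an alternative.

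Intensities were scaled to the 75th percentile over the 108 miRNAs detected on all 8 arrays, floored at 1 and taken to log2. All 8 arrays entered a linear model (R 4.3.3, limma 3.58.1 with moderated variances) of 167 miRNAs, with Benjamini-Hochberg adjustment. The fit was also run on simulated data with normal noise and neither a floor nor an array pattern. That run says nothing of floored signals. The alternatives were other scalings, floors, filters, tests and covariates, the methods' t-test and leaving out each array.

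The miRNAs named were tested members of the miRNA lists, the 10 largest called differences in each direction among non-overlapping miRNAs detected in both tissues, those detected in 1 tissue only and the 5 brightest. The members and lists were chosen with earlier results of these data known. Viral probes (39) were left out. Old array names were matched by hand to the RefSeq arm.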

Additional observations from a re-analysis of the deposited data

Results flagged for a closer look

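The comparison of mouse miRNAs does not use the probes for viral miRNAs. Among these probes, a pair for murine gammaherpesvirus gave higher signals in stroma and ducts than in TEBs. mghv-miR-M1-2 was detected on all 6 arrays, with a mean scaled signal of 43.02 ± 12.04 units (SD, n = 3) in TEBs and 98.46 ± 23.7 units (SD, n = 3) in stroma. mghv-miR-M1-7-3p was detected on no TEB array and on 3 stroma arrays, at 10.5 ± 3.82 units (SD, n = 3) and 37.3 ± 11.5 units (SD, n = 3). Both were lowest on TEB replicate 1 and highest on stroma replicate 2. No source of this signal was tested.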

How the results depend on the processing

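Under the alternatives, 108 miRNAs differed (34 higher in TEBs, 74 in stroma) as analysed above. The count fell to 66 with the 75th percentile over all mouse miRNAs (28 higher in stroma). The median scaling gave 59 higher in TEBs and 36 in stroma, and no scaling gave 41 in stroma. Requiring detection on all 6 arrays left 19 in TEBs, which by construction removes miRNAs absent from stroma. A minimum fold change of 2 left 19 (17 and 2). Detection on at least 1 array gave 33 miRNAs in TEBs alone and 17 in stroma alone. Leaving out each array gave 82 to 114 in all, 29 to 40 in TEBs and 52 to 80 in stroma, with 17 to 23 and 8 to 13 detected in 1 tissue. The methods' t-test called 108 unadjusted and 85 after Benjamini-Hochberg adjustment. Other alternatives kept each count within 1.5 times.

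Same-numbered TEB and stroma arrays deviated from their tissue means with correlations of 0.31, 0.36 and -0.14, and were not taken as pairs. With the replicate number as a block 108 miRNAs differed (34 and 74), with the calls of miR-669f (adjusted p = 0.059), let-7a and miR-15a (both 0.076) lost and those of miR-133a, miR-127 and miR-99b gained. The slide row as a block gave 103. Of 94 named calls, 27 were lost without some array.

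Log2 fold changes reversed for 21 named miRNAs. The median scaling and the 75th percentile over all miRNAs raised the median log2 fold change by 0.48 and 0.39. Each difference that turned under them was smaller than that. The cause of the other reversals was not tested. With normexp and an offset of 50 they were -0.041 for miR-132, -0.27 for miR-218, -0.24 for miR-221, -0.13 for miR-669f, -0.20 for miR-98, -0.32 for miR-494, -0.30 for miR-99b, -0.21 for miR-34b-5p and -0.24 for miR-34c. With the median scaling they were 0.21 for let-7a, 0.32 for let-7b, 0.46 for let-7c, 0.18 for let-7d, 0.43 for let-7e, 0.10 for let-7f, 0.16 for miR-15a, 0.085 for miR-143, 0.43 for miR-24, 0.034 for miR-100, 0.43 for miR-125a-5p and 0.12 for miR-130a. With the 75th percentile over all miRNAs they were 0.12 for let-7a, 0.068 for miR-15a, 0.0904 for let-7d, 0.0045 for let-7f and 0.033 for miR-130a. Quantile normalization gave 0.052 for let-7d and 0.12 for let-7f, and the authors' values gave 0.0034 for let-7d.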
